A study of Drosophila melanogaster with 48 samples.

Results

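The 10 genes described here encode antimicrobial peptides of *Drosophila melanogaster*: the attacins *AttA*, *AttB*, *AttC* and *AttD*, the diptericins *DptA* and *DptB*, *Drosocin* (*Dro*), *Drosomycin* (*Drs*), *Metchnikowin* (*Mtk*) and *Cecropin A1* (*CecA1*). They were selected by FlyBase symbol and not by a cut on measured values, but with earlier results of these data known. They made up 10 of the 13957 genes in the count table. Their transcripts were measured by RNA sequencing in whole heads of male flies that had been kept on food with menadione sodium bisulfite (MSB) or on standard food. MSB is a redox-cycling compound that produces superoxide within cells and is used to impose oxidative stress.

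Antimicrobial peptides are short, mostly secreted proteins that damage bacteria or fungi, and in adult flies the fat body, the insect counterpart of liver and adipose tissue, is their main source during systemic infection. A layer of fat body also lies within the head. Their genes are switched on by 2 signalling pathways. In the Imd pathway, bacterial peptidoglycan bound by the receptor PGRP-LC leads to cleavage of the NF-kappaB factor Relish. In the Toll pathway, the cleaved ligand Spätzle frees the NF-kappaB factors Dif and Dorsal from their inhibitor Cactus. The attacins, diptericins, *Dro* and the cecropins are mainly Imd targets, *Drs* is the classical Toll target, and *Mtk* answers to both. Attacins and diptericins act chiefly on Gram-negative bacteria, Drosomycin on fungi, Metchnikowin on fungi and Gram-positive bacteria, Drosocin on Gram-negative bacteria, and cecropins on a wide range of bacteria.

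The stress groups received 75 mM MSB for 24 h and the control groups received none, but the Zambian lines were exposed for 18 to 20 h under both treatments. Each library came from 60 pooled heads of living males aged 5 to 7 days, so flies that had died on MSB were not sampled. The 12 lines were 4 lines carrying a deletion in the 3′ untranslated region of *Metallothionein A* (M12Δ and M9Δ from Germany, C2Δ from Cyprus, KL1Δ from Malaysia) and 8 nondeletion lines (M12, M9, C2 and KL2 from the same places, and ZI197, ZI254, ZI273 and ZI418 from Zambia). The German and Cypriot pairs were each inbred from a single isofemale line that segregated the deletion, so each genotype of a background was represented by 1 inbred line. KL1Δ and KL2 were separate isofemale lines that differ across the genome. By the sample labels, each line had 2 control libraries and 2 stress libraries, except for 1 stress library in ZI197 and in ZI418 and 3 in ZI254 and in ZI273. The study left out 1 M9 nondeletion stress library as an outlier, and an M9 stress library stood far from all the other stress libraries in a principal component analysis (distance 55.0, against at most 16.4 for any other), so this library was left out here. Hence M9, ZI197 and ZI418 each contributed 1 stress library.

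The 23 stress libraries used held 29414147 to 53939743 counts (median 40361280) and the 24 control libraries held 27223075 to 63358011 (median 40920022.5). All 10 photoreceptor markers and all 8 neuron markers had counts in every library, the lowest photoreceptor value being 410.1 CPM (counts scaled to library size) for *inaD*, and 11 of 12 fat body markers had counts in every library, with *Fbp2* the exception. In each of the 23 stress libraries, the genes with the strongest line differences matched the controls of its own line best.

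Of the members, 7 lie on chromosome arm 2R, 2 on 3R and 1 on 3L (genome Release 6, all on the plus strand). *Dro*, *AttA* and *AttB* form a cluster at 14745961 to 14750165, with 647 bases between *Dro* and *AttA* and 1007 between *AttA* and *AttB*. *DptA* (18865765 to 18866260) and *DptB* (18867391 to 18867895) lie 1130 bases apart. *AttC* (13393705 to 13394667) overlaps *CG4744*, and *DptB* overlaps *CG43109*, both on the opposite strand, and *Mtk* (15408846 to 15409113) overlaps *Stacl* on the same strand. The remaining members lie at 3369556 to 3369942 on 3L (*Drs*), 17625268 to 17626086 on 3R (*AttD*) and 30210874 to 30211273 on 3R (*CecA1*). The strand setting of the counting and the treatment of reads that fit several genes are not given in the sources used here, so reads of overlapping genes, of the near-identical *AttA* and *AttB*, and of *CecA1* and *CecA2* could have been shared between them.

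There were 8 members with counts in all 47 libraries. *CecA1* had counts in 41 libraries and never exceeded 320, and *AttD*, the most divergent attacin, had counts in 28 libraries. *AttD* was the only member that did not pass the filter on low counts over all lines, so 9 of 10 members were tested there. Its counts were at most 10 in any stress library and at most 102 in any control library. Per kilobase of gene length, *Drs* had the highest median level under both treatments, with 97.7 CPM per kb under stress and 29.4 in controls. Under stress *DptB* (8.53), *AttC* (8.51), *AttB* (8.44), *AttA* (5.94) and *Mtk* (4.08) followed, with *Dro* (1.37), *DptA* (1.17), *CecA1* (0.883) and *AttD* (0.0478) below them. In controls *AttC* (13.0) and *Mtk* (10.5) ranked next to *Drs*, ahead of *DptB* (6.15), *Dro* (4.62), *AttB* (4.54), *AttA* (3.71), *DptA* (2.52), *CecA1* (0.441) and *AttD* (0.0339).

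The members varied far more between libraries of 1 group than most genes did. Among the 19 groups with 2 libraries, the median absolute log2 difference between the libraries was 0.33 to 4.17 over the 9 members other than *AttD*, and 0.09 to 0.27 over all tested genes. In 10 of the 19 groups 8 or 9 of the 9 members were higher in the same library, and in 4 of them all 9 were. The groups furthest apart were C2 stress, in which the summed level of the members was 50.3 CPM in replicate 1 and 253 CPM in replicate 2, and M9Δ control, with 280.3 CPM in replicate 1 and 32.1 CPM in replicate 2. In that M9Δ control library *Dro* alone reached 149 CPM, against 1.51 CPM in its replicate. The 60 heads of a library were pooled, so differences between single flies could not be resolved, and the part of infection or other exposure in these replicate differences was not tested.

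**Figure D1:**
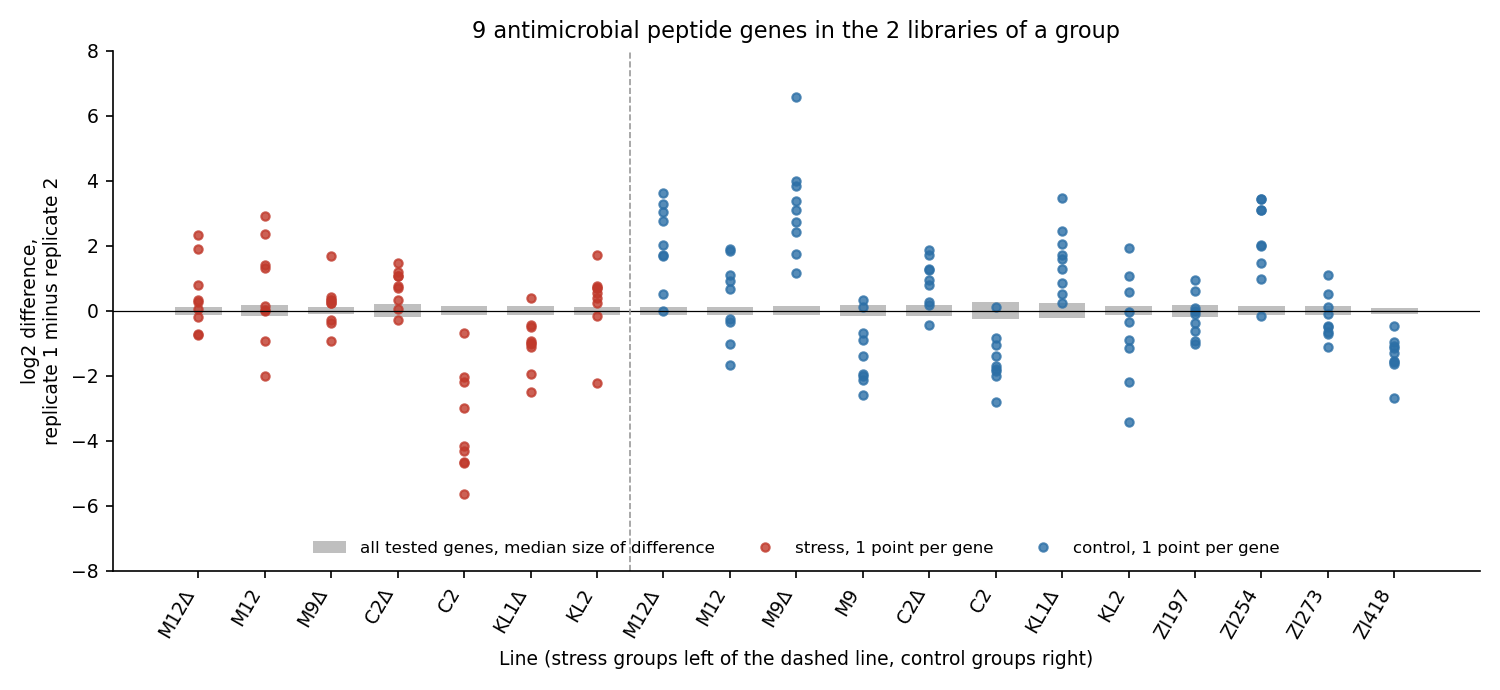
Log2 difference between the 2 libraries of each group (replicate 1 minus replicate 2, vertical axis) for 9 antimicrobial peptide genes, 1 point per gene, with stress groups (red) left of the dashed line and control groups (blue) right of it; grey bands span the median size of the difference over all tested genes, above and below 0. The points lie beyond the bands and mostly on one side of 0 in C2 stress, M9Δ control, KL1Δ control and ZI418 control.

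To identify a response shared by all lines, all stress libraries were compared with all control libraries. Of the 9 members tested, 3 were higher under stress (*Drs*, *AttB* and *CecA1*) and 2 were lower (*Dro* and *Mtk*) at an adjusted p under 0.05 in edgeR's quasi-likelihood test, and 4 were not called. Over all 10514 genes tested, 53.5% were called (27.3% higher and 26.2% lower), so 5 of 9 was close to the background. This comparison did not take the line of a library into account. With line as a term in the fit, *Drs* (log2 fold-change 1.43, adjusted p = 0.000273) and *AttB* (1.35, adjusted p = 0.00163) were higher and *Mtk* (-1.68, adjusted p = 0.00025) and *Dro* (-1.79, adjusted p = 0.00359) lower, while *CecA1* was not called (0.85, adjusted p = 0.103). The median log2 fold-change of the members was 0.24, against 0.01 over all tested genes. In whole heads, fewer cells of a type and less RNA per cell cannot be told apart.

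*Drs*, the antifungal Toll target, showed the largest change among the tested members when line was not a term in the fit. Once line was a term, the log2 fold-changes of *Dro* (-1.79) and *Mtk* (-1.68) were larger in size than that of *Drs* (1.43). Its lowest, median and highest levels were 8.82, 37.8 and 498 CPM in the 23 stress libraries, against 3.29, 11.4 and 47.5 CPM in the 24 control libraries. The ranges overlapped, but the median under stress lay above most controls. The log2 fold-change was 2.52 ± 0.43 (adjusted p = 2.22e-06, edgeR), where the value after ± is the standard error here and below, and without the M12Δ line it was 1.54 (adjusted p = 0.000146). *Drs* took a median of 59.0% of the summed level of the 10 members under stress and 18.6% in controls.

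*AttB* ranged from 0.993 through a median of 7.42 to 66.5 CPM under stress, and from 0.476 through 3.99 to 23.7 CPM in controls. Its log2 fold-change was 1.40 ± 0.45 (adjusted p = 0.00706). Its neighbour *AttA* had a median of 4.69 CPM under stress and 2.93 CPM in controls, with a log2 fold-change of 0.78 ± 0.42 (adjusted p = 0.111), which did not pass. When the counts of both attacins were summed, so that the division of shared reads did not matter, the log2 fold-change was 1.15 ± 0.40 (adjusted p = 0.0135).

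*CecA1* was sparse, with 0 to 6.68 CPM under stress (median 0.299) and 0 to 1.04 CPM in controls (median 0.149). Its log2 fold-change of 1.31 ± 0.55 (adjusted p = 0.0394) passed narrowly and lost its call in 25 of 69 alternatives. Without the KL1Δ line it was 0.23 (adjusted p = 0.72). Summed with *CecA2* it was 1.17 ± 0.53 (adjusted p = 0.0595).

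*Mtk* and *Dro* were lower under stress over all lines. *Mtk* had 0.214, 1.09 and 17.2 CPM (lowest, median, highest) under stress, against 0.989, 2.81 and 23.8 CPM in controls, a log2 fold-change of -1.28 ± 0.49 (adjusted p = 0.0237). *Dro* had 0.194, 1.03 and 35.5 CPM under stress, against 0.676, 3.48 and 149 CPM in controls, a log2 fold-change of -1.71 ± 0.61 (adjusted p = 0.0161). Both kept their sign in all alternatives, but *Dro* was no longer called without the M9Δ line (log2 fold-change -0.65, adjusted p = 0.321), which holds the control library with 149 CPM. *Mtk* was not called without M12, M9Δ, ZI254 or ZI418 (adjusted p 0.0613 to 0.0742) and, without all Zambian lines, had a log2 fold-change of -0.79 (adjusted p = 0.327). *Dro* also lost its call without the Zambian lines, so neither gene was called in the cosmopolitan lines alone. Both lost it too with the replicate number as a term in the fit.

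The diptericins and *AttC* were not called over all lines. The log2 fold-changes were 0.24 ± 0.54 (adjusted p = 0.729) for *DptB*, 0.15 ± 0.56 (adjusted p = 0.842) for *AttC* and -0.24 ± 0.66 (adjusted p = 0.781) for *DptA*. In the separate fits of each background these 3 genes went in different directions from line to line, and the values over all lines rested in part on KL1Δ. Without that line the log2 fold-changes were -0.67 for *DptB* (adjusted p = 0.28), -0.67 for *AttC* (adjusted p = 0.311) and -1.59 for *DptA*, which was then called (adjusted p = 0.0323). With line as a term, *DptA* was at -1.34 (adjusted p = 0.0762).

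**Figure D2:**
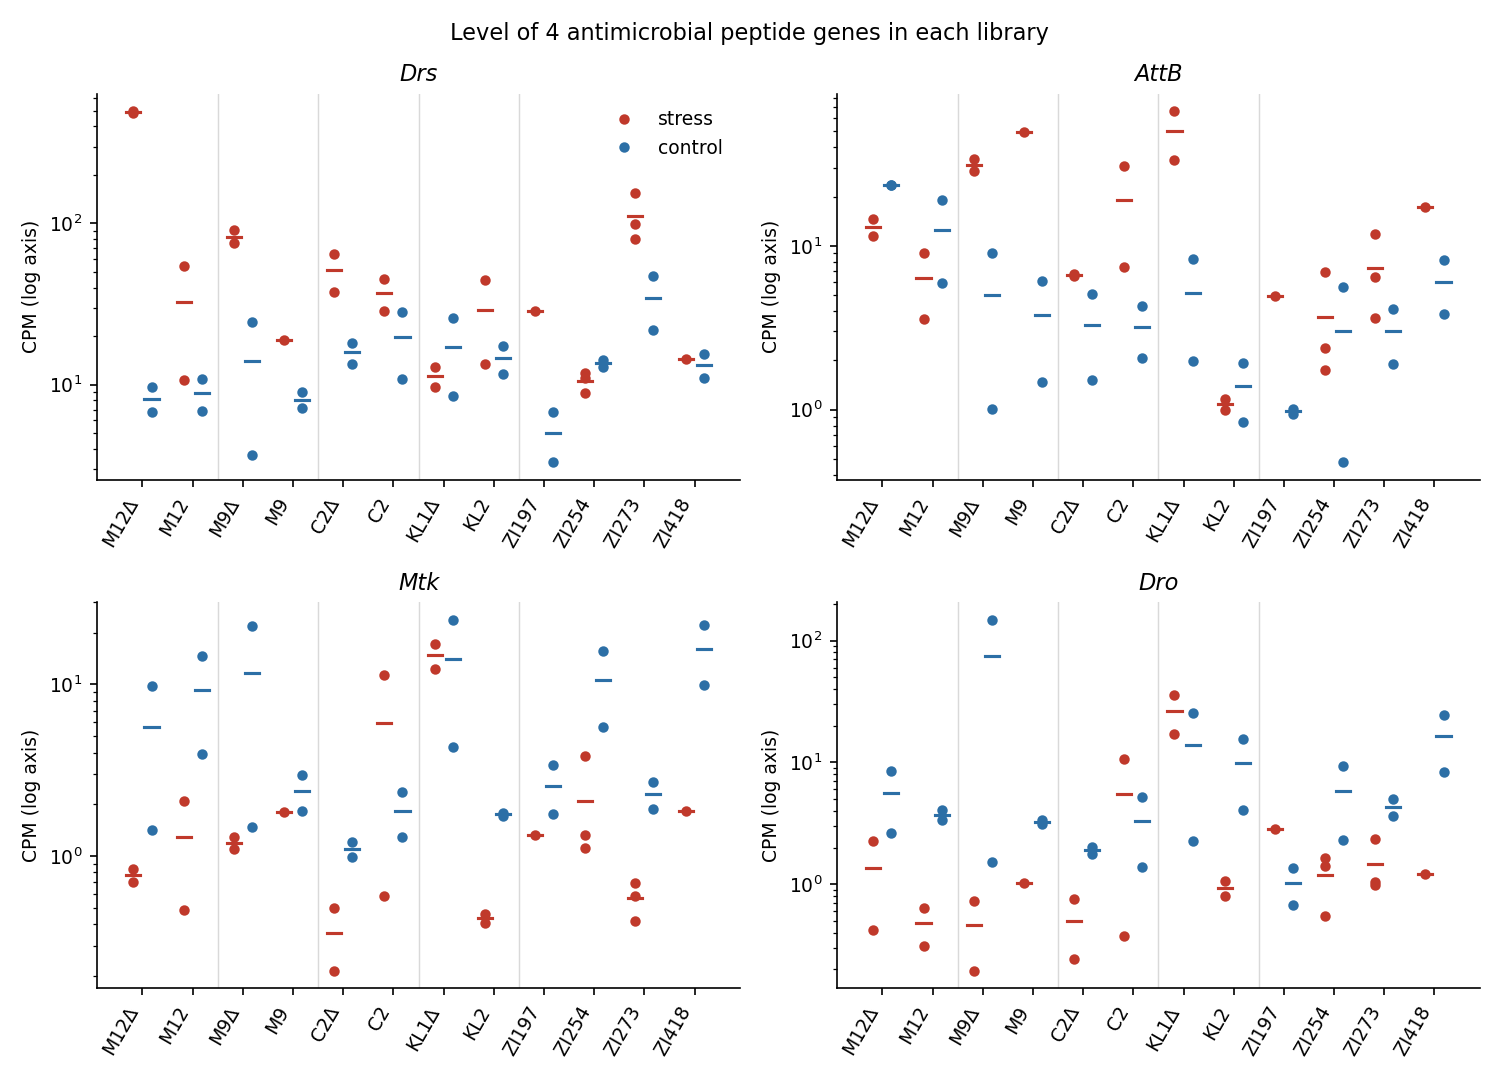
CPM (log axis) of Drs, AttB, Mtk and Dro in every library of the 12 lines, stress in red left of control in blue; points are libraries and bars are group means, and grey lines separate the backgrounds. Drs lay highest in the M12Δ stress libraries (498 and 485 CPM), Mtk was mostly lower under stress, and the M9Δ control point at 149 CPM stands apart in the Dro panel.

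Within lines, 24 of 112 tests of a member in a line passed the threshold (16 higher and 8 lower under stress), or about as often as the 19.8% over all genes and lines. At an unadjusted p under 0.05 were 49 of these 112 tests, against 44288 of 133936 over all genes. DESeq2 called 27 of the tests of a member and 29775 of those over all genes. *Drs* was higher under stress in 10 of 12 lines and called in 5 of them, and every stress library exceeded every control library of its line in 7 lines. Groups held only 1 to 3 libraries, and the share of all genes with such separation was not computed, here or below. In M12Δ *Drs* had 498 and 485 CPM under stress, against 9.64 and 6.73 CPM in controls, a log2 fold-change of 5.87 ± 0.71 (adjusted p = 0.000501). The line with the next highest stress mean was ZI273, with 154, 79.8 and 98.7 CPM under stress, against 21.7 and 47.5 CPM in controls (log2 fold-change 1.70 ± 0.38, adjusted p = 0.00755).

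Another 3 lines up-regulated *Drs*. In M9Δ it had 75.2 and 90.8 CPM under stress and 24.5 and 3.64 CPM in controls, a log2 fold-change of 2.55 ± 0.66 (adjusted p = 0.02). In C2Δ it had 64.4 and 37.8 CPM under stress and 13.5 and 18.2 CPM in controls, a log2 fold-change of 1.70 ± 0.46 (adjusted p = 0.04). In ZI197 the single stress library had 28.7 CPM, against 3.29 and 6.74 CPM in controls, a log2 fold-change of 2.49 ± 0.48 (adjusted p = 0.006). The C2Δ call was lost without any 1 of its own 4 libraries, the M9Δ call without either stress library (the value was 4.51 without control replicate 1), and the ZI273 call without control replicate 1. *Drs* did not pass in KL1Δ (log2 fold-change -0.63) or ZI254 (-0.37), the 2 lines in which it was not higher. In ZI254 all 3 stress libraries (8.82 to 11.8 CPM) lay below both controls (12.8 and 14.3 CPM).

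In 10 of 12 lines *Mtk* was lower with MSB, every stress library lying below every control library in each of those 10, and it was called in 4. In ZI254 it had 1.32, 3.80 and 1.12 CPM under stress, against 15.6 and 5.61 CPM in controls (log2 fold-change -2.37 ± 0.56, adjusted p = 0.015), but without control replicate 1 the value was -1.44 (adjusted p = 0.171), and the call was also lost without stress replicate 3. In ZI418 it had 1.83 CPM under stress, against 9.96 and 22.0 CPM in controls (log2 fold-change -3.11 ± 0.88, adjusted p = 0.0328). The other calls were in ZI273 (-1.99 ± 0.64, adjusted p = 0.0402) and M9Δ (-3.30 ± 1.03, adjusted p = 0.0417), and the M9Δ value was -0.31 without control replicate 1. The ZI273 call was lost without any 1 of the 5 libraries of that line (adjusted p 0.0684 to 0.193), and the M9Δ call also without either stress library. C2 (1.71) and KL1Δ (0.12) were the lines with higher *Mtk* under stress, and neither passed. In M9 the separation was slight, with 1.80 CPM in its single stress library, against 1.82 and 2.95 CPM in controls.

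In 9 of 12 lines *Dro* was lower with MSB, and 3 of these passed. In ZI418 it had 1.21 CPM under stress, against 8.33 and 24.5 CPM in controls (log2 fold-change -3.74 ± 1.05, adjusted p = 0.0319). In ZI254 it had 0.548, 1.64 and 1.42 CPM under stress, against 9.36 and 2.30 CPM in controls (log2 fold-change -2.29 ± 0.66, adjusted p = 0.0347), a call that was lost without any 1 of the stress libraries or without control replicate 1 (-0.94, adjusted p = 0.44). In M9Δ the fitted value was -7.32 ± 1.93 (adjusted p = 0.0221) with 0.735 and 0.194 CPM under stress, against 149 and 1.51 CPM in controls, and without that first control library it was -1.68 (adjusted p = 0.0751). The call was also lost without either M9Δ stress library. The calls of *Mtk* and *Dro* in ZI418 were both lost without control replicate 2, the higher of its controls.

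**Figure D3:**
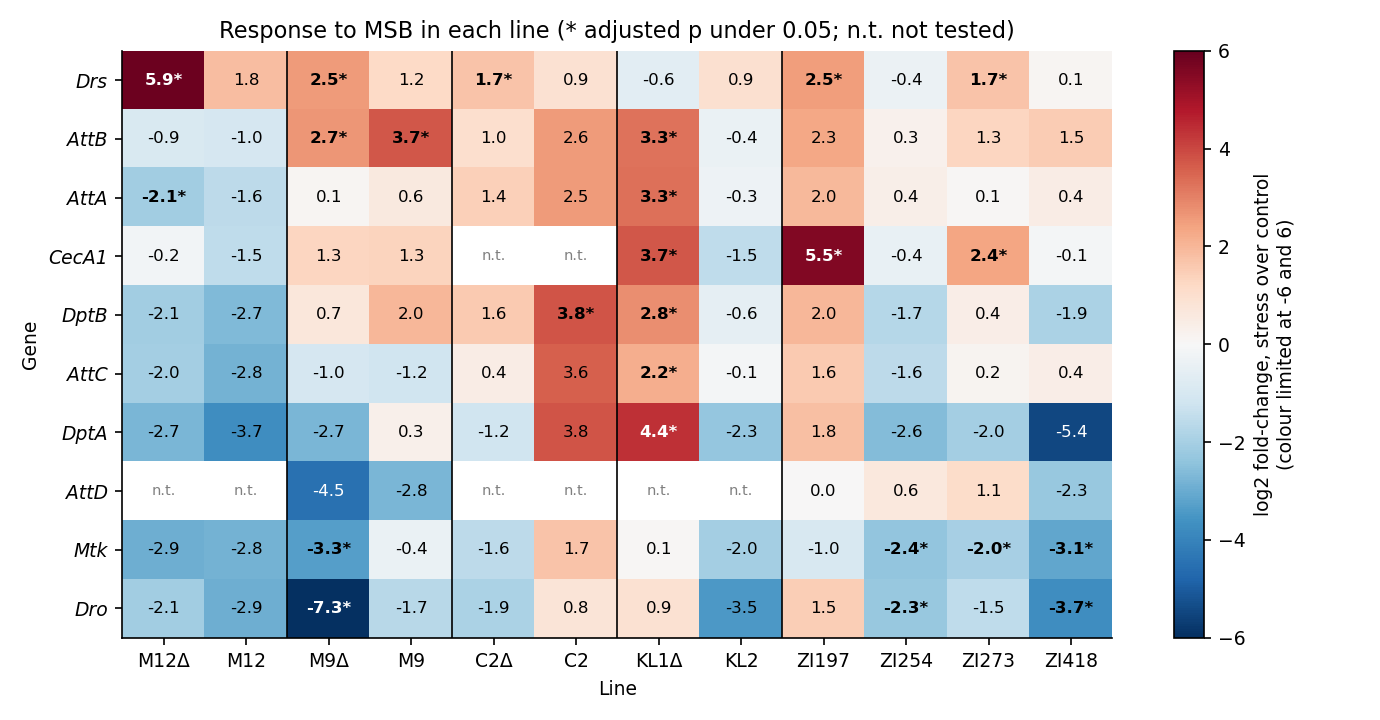
Log2 fold-change of stress over control (colour and printed value) for the 10 genes (rows) in the 12 lines (columns), from a separate fit of each background; asterisks mark an adjusted p under 0.05, and n.t. marks genes under the filter on low counts. Drs runs mostly positive, Mtk and Dro run mostly negative, and the remaining genes are positive in KL1Δ and C2 and negative in M12Δ and M12.

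The attacins, diptericins and *CecA1* differed in direction from line to line. KL1Δ gave the most calls, with 6 of 9 tested members higher under stress, against 13.6% of all genes higher in that line (24.9% in either direction). *DptA* had 7.89 and 44.7 CPM under stress and 1.79 and 0.702 CPM in controls, a log2 fold-change of 4.37 ± 0.83 (adjusted p = 0.00674). *AttC* had 139.7 and 190.1 CPM under stress and 45.9 and 25.6 CPM in controls, a log2 fold-change of 2.20 ± 0.31 (adjusted p = 0.00177). For both genes each stress library lay above both controls.

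The other members called in KL1Δ were *CecA1* (3.71 ± 1.07), *AttA* (3.29 ± 0.65), *AttB* (3.25 ± 0.60) and *DptB* (2.81 ± 0.42), with adjusted p between 0.00225 and 0.0369. *AttA*, *DptA* and *CecA1* lost their call when certain KL1Δ libraries were left out, and *AttB*, *AttC* and *DptB* kept theirs with any KL1Δ library left out. *Drs*, *Mtk* and *Dro* were not called in this line. In KL2, from the same place, 0 of 9 members were called by edgeR (background 8.29%), with 2 at an unadjusted p under 0.05 and 1 called by DESeq2. There 8 of 9 members were lower under stress, and the median log2 fold-change was -0.56, against 2.81 in KL1Δ.

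In M12Δ and M12, 8 of 9 tested members were lower under stress and *Drs* alone was higher, with medians of -2.08 and -2.66 on the log2 scale. The single tests seldom passed: in M12Δ 2 of 9 members were called (background 34.4%), *Drs* and *AttA* (log2 fold-change -2.09 ± 0.55, adjusted p = 0.0192), and in M12 0 of 9 were called by edgeR (background 12.6%), with 7 at an unadjusted p under 0.05 and 3 called by DESeq2. *AttA* in M12Δ had 2.80 and 1.60 CPM under stress, against 13.9 and 4.26 CPM in controls. That call was lost without control replicate 1 or stress replicate 2. With the counts of *AttA* and *AttB* summed, the log2 fold-change in M12Δ was -1.14 ± 0.47 (adjusted p = 0.0924), which did not pass.

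In the M9 background *AttB* was up-regulated in both lines. M9Δ had 33.8 and 28.7 CPM under stress, against 9.0 and 1.0 CPM in controls (log2 fold-change 2.65 ± 0.81, adjusted p = 0.0388), and M9 had 49.8 CPM in its single stress library, against 1.47 and 6.11 CPM in controls (log2 fold-change 3.71 ± 0.93, adjusted p = 0.0215). With the counts of *AttA* and *AttB* summed, the log2 fold-change was 1.82 ± 0.75 in M9Δ (adjusted p = 0.101), which did not pass, and 3.01 ± 0.88 in M9. In all, 4 of 10 members were called in M9Δ (background 33%) and 1 of 10 in M9 (27.4%). The M9Δ call of *AttB* was lost without either stress library or control replicate 2, with values of 1.77 to 4.96 as single libraries were left out, and with the excluded M9 library put back *AttB* was called in neither line (adjusted p = 0.171 in M9Δ and 0.0612 in M9). Without M9Δ control replicate 1, which held 149 CPM of *Dro*, the median log2 fold-change of the members in M9Δ was 1.14, against -0.43 with it, and *AttA* (1.83, adjusted p = 0.0438) and *DptB* (3.25, adjusted p = 0.0162) were then called. DESeq2 called *AttB* in neither line (adjusted p = 0.1 in M9Δ and 0.0588 in M9).

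The C2 background gave 1 call of 8 in each line, *Drs* in C2Δ (background 14.7%) and *DptB* in C2 (9.22%). All 8 tested members were higher under stress in C2, with a median log2 fold-change of 2.56, but the stress libraries disagreed. *DptB* had 4.58 and 36.8 CPM under stress, against 0.672 and 2.43 CPM in controls (log2 fold-change 3.75 ± 0.95, adjusted p = 0.045), and the call was lost when any 1 of 7 of the 8 libraries of the background was left out, with values as low as 1.54. *AttC* showed the same split, with 3.73 and 75.9 CPM under stress and 1.28 and 5.33 CPM in controls. Without stress replicate 2 the median log2 fold-change in C2 was 0.33, *AttC* was at 0.15 (adjusted p = 0.962), and *Mtk* (-1.67), *DptA* (-1.10) and *Dro* (-3.15) were below 0.

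Among the Zambian lines, ZI197 had 2 of 10 members called (background 14%), ZI254 2 of 10 (16.9%), ZI273 3 of 10 (25.7%) and ZI418 2 of 10 (15.8%). Besides *Drs*, *Mtk* and *Dro*, these were *CecA1* in ZI273 and ZI197. In ZI273 *CecA1* had 12, 8 and 12 counts under stress, against 3 and 2 counts in controls (log2 fold-change 2.38 ± 0.73, adjusted p = 0.0362). In ZI197 it had 6 counts under stress and 0 in both controls, which is at least 2.04-fold higher when each control is set to a floor of 3 counts. Both of these *CecA1* calls were lost in several fits with 1 library left out. Summed with *CecA2*, *CecA1* was called in neither line, with a log2 fold-change of 1.37 ± 0.81 in ZI273 (adjusted p = 0.239).

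The responses of some members differed between lines beyond the replicate spread. In a test of the 11 line by treatment terms over all lines, 4 of 10 members were called, namely *Drs* (adjusted p = 0.00517), *DptB* (0.0292), *AttC* (0.034) and *DptA* (0.0424), against 9.66% of all genes. *Dro* (0.104), *AttB* (0.103), *AttA* (0.101), *Mtk* (0.252), *CecA1* (0.269) and *AttD* (0.489) did not pass. Log2 fold-changes by line spanned -0.63 to 5.87 for *Drs*, -2.66 to 3.75 for *DptB*, -2.81 to 3.60 for *AttC* and -5.45 to 4.37 for *DptA*. DESeq2 called 7 of the 10 members in this test, and 2661 of the 11979 genes tested. Without C2 stress replicate 2 only *Drs* was called in edgeR.

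The neighbouring diptericins did not keep a fixed ratio. The log2 ratio of *DptB* to *DptA* counts (1 count added to each) had a median of 2.79 in stress libraries and 1.15 in controls. The ratio was higher with MSB in 11 of 12 lines, with every stress library above every control library in 6 of them, and lower in KL1Δ (-1.30). The largest shifts were in ZI418 (3.11) and M9Δ (3.09). This ratio is a description, and no test was run on it. The log2 ratio of *AttB* to *AttA* was higher under stress in 8 of 12 lines, by 3.28 in M9 and 2.77 in M9Δ and by at most 1.19 in the other lines. Control ratios also differed among lines, with mean log2 values of 1.64 in M12 and -1.70 in ZI273.

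**Figure D4:**
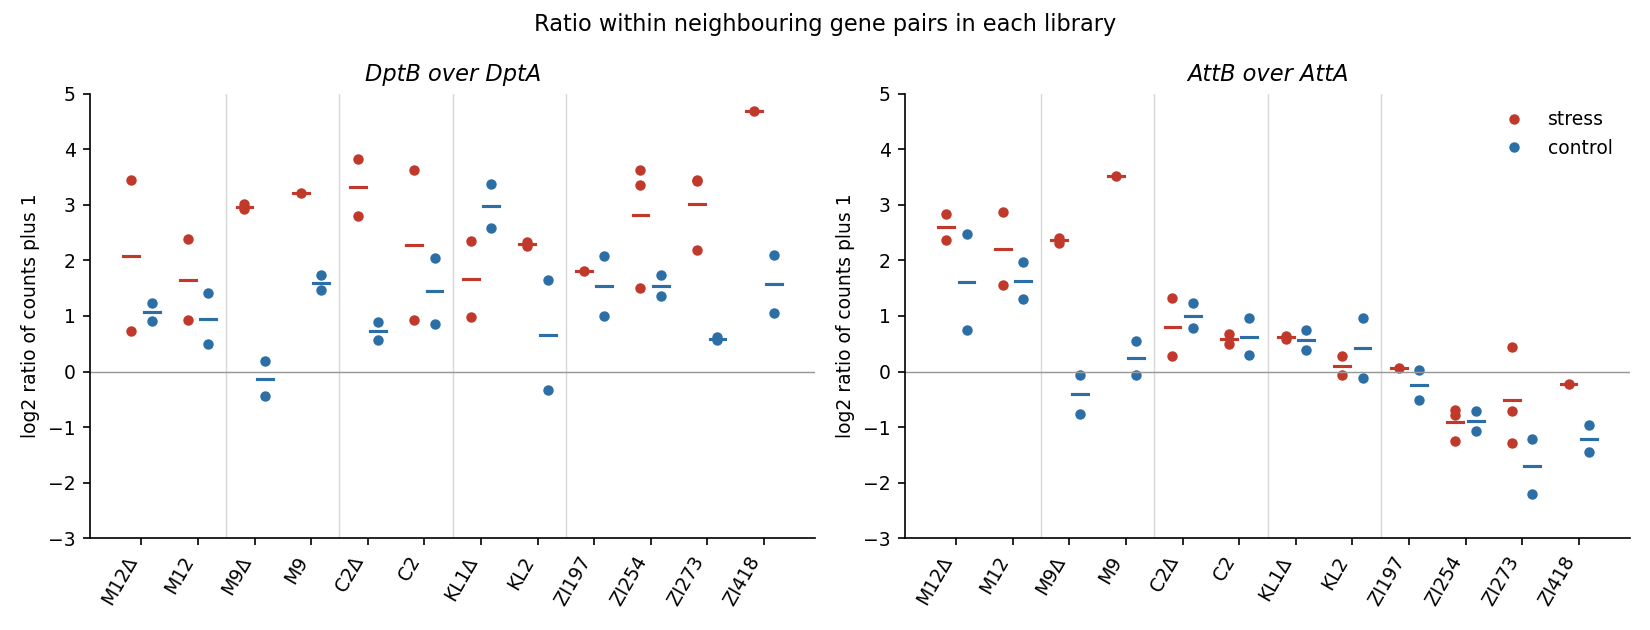
Log2 ratio of counts (1 added to each) of DptB over DptA (left) and AttB over AttA (right) in every library of the 12 lines, stress in red left of control in blue; points are libraries and bars are group means. The DptB over DptA ratio was higher under stress in every line but KL1Δ, and the AttB over AttA ratio moved most in M9 and M9Δ.

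The deletion and nondeletion lines of each background were then compared within a treatment. Under MSB, 9 of 36 tests of a member in a background were called, all higher in the deletion line, against 7.93% over all genes. Of these, 8 came from the Malaysian lines, in which 8 of 9 members were called (background 21.7%) and only *Drs* was not. *AttC* had 139.7 and 190.1 CPM in KL1Δ, against 4.10 and 2.39 CPM in KL2, a log2 difference of 5.70 ± 0.38 (adjusted p = 5.37e-05). *DptA* had 7.89 and 44.7 CPM in KL1Δ, against 0.435 and 0.248 CPM in KL2, a log2 difference of 6.34 ± 0.96 (adjusted p = 0.00274). The other 6 log2 differences were 4.51 to 5.55, and for all 8 genes both KL1Δ libraries lay above both KL2 libraries. The *Dro* call was lost without KL1Δ stress replicate 2 or either KL2 stress library (adjusted p up to 0.0975), and the *CecA1* call without KL1Δ stress replicate 2 or KL2 stress replicate 1 (log2 difference 3.19 and 3.80).

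The ninth call under MSB was *Drs* in the M12 background (1 of 9 members called, background 8%). It had 498 and 485 CPM in M12Δ, against 54.6 and 10.7 CPM in M12, a log2 difference of 3.91 ± 0.64 (adjusted p = 0.0115). Without M12Δ stress replicate 1 the adjusted p was 0.0576. Under MSB 0 of 10 members were called by edgeR in the M9 background (1.97% of all genes called), with 1 at an unadjusted p under 0.05. In the C2 background 0 of 8 were called (0.204%), with 5 at an unadjusted p under 0.05. DESeq2 called 0 in both. Over all backgrounds 15 of 36 tests of a member had an unadjusted p under 0.05 under MSB, against 9258 of 43954 over all genes. The C2 values include stress replicate 2, in which the members summed to 253 CPM, against 50.3 CPM in replicate 1.

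In controls 3 of 36 tests were called, against 3.36% over all genes, and all 3 were in the Malaysian lines (3 of 9 members, background 10.9%). *AttC* had 45.9 and 25.6 CPM in KL1Δ, against 2.95 and 3.76 CPM in KL2 (log2 difference 3.40 ± 0.35, adjusted p = 0.000676). *Mtk* had 23.8 and 4.31 CPM in KL1Δ, against 1.71 and 1.77 CPM in KL2 (log2 difference 3.00 ± 0.68, adjusted p = 0.0272). *DptB* had 10.8 and 7.53 CPM in KL1Δ, against 1.71 and 3.25 CPM in KL2 (log2 difference 1.88 ± 0.46, adjusted p = 0.0355). The *Mtk* and *DptB* calls were lost without either KL2 control, and also without either KL1Δ stress library for *Mtk* and either KL1Δ control for *DptB*. In the other backgrounds 0 members were called by edgeR or DESeq2. Of all genes, edgeR called 0.1% in M12, 2.28% in M9 and 0.232% in C2. At an unadjusted p under 0.05 were 1 of 9 members in M12, 3 of 10 in M9 and 0 of 8 in C2. Over all backgrounds 8 of 36 tests of a member reached that level in controls, against 5880 of 43954 tests over all genes. Since the Malaysian lines differ across the genome, the deletion and the rest of the background cannot be told apart in them. The paper reports that the German and Cypriot pairs also kept some other sequence differences, most of all M9.

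No member's response was called as different between deletion and nondeletion lines by the test of that difference in edgeR. There 0 of 36 were called, against 0.364% over all genes (1.23% in the Malaysian lines, 0.0822% in M12, 0.15% in M9 and 0% in C2). At an unadjusted p under 0.05 were 8 of 36, against 5013 of 43954 tests over all genes. DESeq2 called 4 of 36, and 1128 tests over all genes. The 4 that DESeq2 called were *DptB* (log2 difference of responses 3.37 ± 0.65, adjusted p = 0.0528 in edgeR), *DptA* (6.69 ± 1.31, adjusted p = 0.0549) and *AttC* (2.31 ± 0.48, adjusted p = 0.0671) in the Malaysian lines, and *Drs* (4.02 ± 0.87, adjusted p = 0.121) in the M12 background. The same 4 were called in edgeR when no filter on low counts was used.

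**Figure D5:**
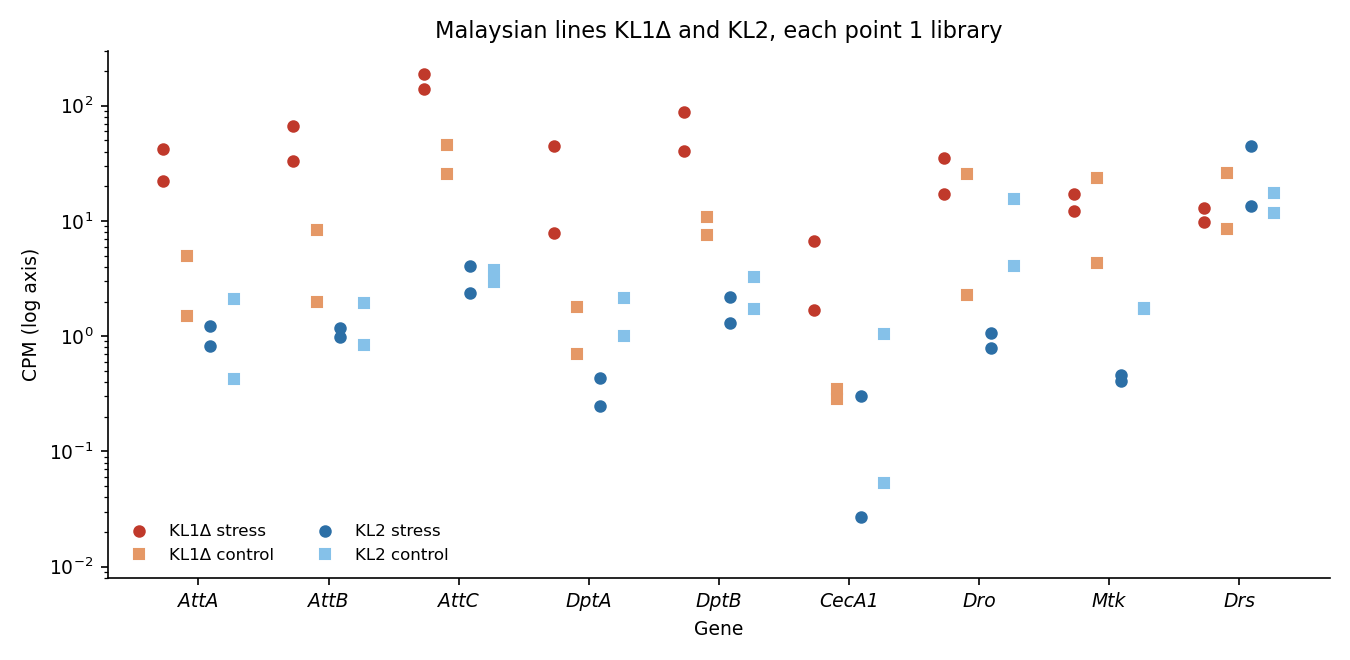
CPM (log axis) of 9 antimicrobial peptide genes in the libraries of the Malaysian lines KL1Δ (stress dark red circles, control orange squares) and KL2 (stress dark blue circles, control light blue squares), 1 point per library. The KL1Δ stress libraries lie above the KL2 stress libraries for every gene but Drs, and AttC is separated in the controls as well.

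Unstressed levels differed among the 12 lines for 7 of 10 members, against 51.5% of all genes. The called members were *AttC* (adjusted p = 0.000235), *DptB* (0.00476), *AttD* (0.0128), *Dro* (0.0171), *DptA* (0.0182), *Mtk* (0.0332) and *AttB* (0.035), and *AttA* (0.0536), *CecA1* (0.0736) and *Drs* (0.104) did not pass. With single control libraries left out, *AttC*, *DptB* and *DptA* kept their call in all 24 fits, *AttB* lost it in 8 and *Mtk* in 10. *AttD* was not called without ZI418 control replicate 2, the library with 102 counts (adjusted p = 0.205), nor *Dro* without M9Δ control replicate 1 (adjusted p = 0.0512). *AttC* spanned a 68.6-fold range of line means, with 64.3 CPM in ZI418 controls and 0.938 CPM in ZI197 controls. When the lines were ordered by their *AttC* mean, only 3 of 11 neighbouring lines had libraries that did not overlap. *Drs* spanned a 6.90-fold range in controls, with 34.6 CPM in ZI273 and 5.02 CPM in ZI197.

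ZI418 had the highest control mean of *AttA*, *AttC*, *AttD*, *DptA*, *DptB*, *Mtk* and *CecA1*, and ZI197 the lowest control mean of 8 members, all but *Mtk* and the sparse *AttD*. For none of the genes led by ZI418 did both of its controls lie above those of the next line. The summed level of the members in ZI418 controls was 105 CPM in replicate 1 and 258 CPM in replicate 2. Under stress KL1Δ had the highest mean of 8 members, and M12Δ of *Drs* with a 46.6-fold range down to ZI254 (10.5 CPM). Neighbours in the stress order of *Drs* were apart in 5 of 11 cases.

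The lines of the ancestral Zambian range were compared with the cosmopolitan lines with 1 value per line and treatment. No member was called by edgeR in controls (0 of 9 tested, background 0.0362%) or in its response (0 of 10, background 0%), and in neither comparison did any member reach an unadjusted p under 0.05 or a call by DESeq2. Over all genes 1207 and 749 reached an unadjusted p under 0.05, and DESeq2 called 275 and 33. In controls the largest log2 differences, Zambian minus cosmopolitan, were -1.12 for *AttB* (SE 0.72) and 1.06 for *AttA* (SE 0.60). The differences in response ran between -1.37 for *DptA* (SE 1.81) and 0.34 for *Dro* (SE 1.38). The standard errors allow differences of several fold, in either direction for the responses of *DptA* and *Dro*. The shorter exposure of the Zambian lines cannot be told apart from their origin.

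Across the 47 libraries, with treatment means but not line means removed, 8 of the 9 tested members were correlated with each other and *Drs* was not. The median Pearson correlation of log2 CPM with the other members was 0.61 to 0.76 for those 8, with the highest single value between *DptA* and *DptB* (0.88). For *Drs* it was 0.04, with 0.13 towards *AttB* as its highest and -0.20 towards *Mtk* as its lowest value. These libraries share lines and replicate pairs, so the correlations are descriptions. In the 4 groups in which all 9 members were higher in the same library, *Drs* shifted with the others, as the definition of these groups requires. *Drs* alone went against the other 8 in C2Δ control, KL1Δ stress and ZI254 control. Its log2 differences there, replicate 1 minus replicate 2, were -0.43, 0.40 and -0.16. In C2Δ stress, C2 control and M12Δ control the single gene against the rest was another member. The genes outside the 10 with the highest median correlation to the tested members were *CecC* (0.65), another cecropin, followed by *eIF6* (0.58), a ribosome assembly factor, *LamC* (0.56), a nuclear lamin, *CG8620* (0.55) and *CG5892* (0.54).

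Other antimicrobial peptide genes were mostly lower or not called over all lines. Of 13 listed, 6 could be tested, of which 3 were lower and 3 were not called. The *Drs* relatives *Drsl4* (log2 fold-change -2.44 ± 0.34, adjusted p = 2.66e-08) and *Drsl5* (-1.78 ± 0.27, adjusted p = 2.7e-07) were downregulated while *Drs* was up-regulated, and *Def*, which encodes the insect defensin active on Gram-positive bacteria, was downregulated too (-2.04 ± 0.42, adjusted p = 4.64e-05). *Drsl4* averaged 36.9 CPM under stress and 199.8 CPM in controls. The median of the 6 was -0.87.

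Of the 15 Imd pathway genes, 6 were higher and 1 was lower. *Rel*, which encodes Relish (1.07 ± 0.10, adjusted p = 5.33e-13), and *Tab2*, an adaptor of the kinase Tak1 (0.52), rose most, and *eff*, a ubiquitin-conjugating enzyme, fell by 0.16 on the log2 scale, while *Diap2*, a ubiquitin ligase, rose by 0.10. Of 10 tested Imd inhibitors, 5 were higher and 1 lower, led by *PGRP-SC2*, a peptidoglycan-degrading amidase (1.78 ± 0.29), and *pirk*, which binds PGRP-LC (1.26 ± 0.17), with *casp* at 0.14 and the deubiquitinase gene *trbd* at -0.17.

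Of the 18 Toll pathway genes, 6 were higher and 6 lower. *dl*, which encodes Dorsal (0.67 ± 0.06), and *spz*, the Toll ligand gene (0.44 ± 0.10), rose, whereas *SPE*, the protease that cleaves Spätzle (-1.49 ± 0.16), and *PGRP-SD*, a recognition protein gene (-1.42 ± 0.14), fell. Of 3 tested Toll inhibitors, the serpin gene *Spn27A* (0.86) and *cact*, which encodes Cactus (0.46), were higher, and the serpin gene *nec* was lower (-0.63). These lists are to be read against 27.3% of all genes higher and 26.2% lower.

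Markers of the cells that make antimicrobial peptides were lower under stress. Of 11 tested fat body markers, 7 were lower and 2 higher (median -1.51), and their summed level was 2733 to 9404 CPM under stress and 5401 to 23270 CPM in controls. The satiety-linked gene *fit* (-4.09) and the storage protein gene *Lsp2* (-2.07) fell most, and the lipase gene *bmm* (1.76) and *Fbp1* (1.02) rose. *to* and *CG9394* were not called. In controls *apolpp*, *Lsp2* and *FASN1* made the largest parts of the sum, averaging 4996, 1963 and 1956 CPM, so it mainly follows a few genes. The sum was lower under stress in all 12 lines, by -2.17 to -1.14 on the log2 scale, including M12Δ (2833 CPM under stress and 12758 CPM in controls), where *Drs* rose most, and KL1Δ (3017 CPM under stress and 9805 CPM in controls), where 6 members rose. Of 11 haemocyte markers 7 were lower and 4 were not called (median -0.77), led by *Hml* (-1.87) and *eater* (-1.50), with *Pxn* (-0.44) and *NimC1* (-0.77) changing least among those called, and their sum was 394 to 903 CPM under stress and 465 to 1329 CPM in controls.

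Other cell type markers changed less uniformly. Of 3 tested midgut markers 2 were higher, *Amy-p* (1.88) and *Npc2f* (1.30), and the list's sum was 23.3 to 368 CPM under stress and 8.66 to 150.2 CPM in controls, with *LManVI*, *betaTry*, *alphaTry* and *PGRP-SC1a* at 0 in at least 1 library. *Amy-p* held most of that sum, averaging 166.5 CPM under stress and 45.2 CPM in controls. *Npc2f* averaged 3.34 and 1.35 CPM. *Mal-A1*, the third tested marker, averaged 4.16 and 4.49 CPM and was not called. The sum was higher under stress in all 12 lines, by 0.55 to 3.96 on the log2 scale, with ZI197 (3.77) and M9Δ (3.31) close to KL1Δ (3.96). In KL1Δ it was 267 CPM under stress and 17.2 CPM in controls, and in KL2 it was 35.9 CPM under stress and 13.0 CPM in controls. Of 7 glia markers 5 were lower, with *wrapper* (-1.41) and *nrv2* (-0.83) lowest and *Gs2* (-0.53) and *alrm* (-0.54) changing least. Of 10 photoreceptor markers 1 was higher (*Arr2*, 0.21) and 1 lower (*norpA*, -0.28). The part of these cell type differences in the results on the antimicrobial peptide genes was not tested.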

How the data were processed

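Total RNA of 60 pooled male heads per library was poly-A selected and sequenced by the authors, who mapped the reads with NextGenMap to the FlyBase transcriptome and deposited raw counts per gene for 48 libraries, with gene lengths. The submitters' processing notes name DESeq2 (version 1.28.1) and R (version 4.0.0). How reads that fit several genes were counted is not given in the sources used here. A metadata table was not used. Groups came from the sample labels. Replicates were described as biological, from separate pools of flies, and no 2 libraries of the same group were duplicates in the 25 pairs checked.

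From the deposited counts, genes were tested with edgeR (version 4.0.16, R version 4.3.3; TMM factors, filterByExpr, quasi-likelihood F tests), with p-values adjusted by Benjamini and Hochberg over all genes tested and a threshold of 0.05. Standard errors were derived from the log2 fold-change and its F value. Following the study, the response over all lines had treatment as the only term, and each background was fitted apart, the Zambian lines together. CPM used TMM factors over 47 libraries, and correlations used log2 CPM with a prior count of 2. Ranges were compared on counts summed per line and treatment. Scripts were tested on simulated counts. DESeq2 (version 1.42.0), other scalings, filters and sample sets were alternatives.

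The 10 genes, the pathway and marker lists and the tests were chosen with earlier results of these data known. All 10 members are named. Of each other list, the text names the 2 called genes with the highest and the 2 with the lowest log2 fold-change, and it names the 5 genes most correlated with the members. Some markers are also named for their level, their counts or because they were not called.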

Additional observations from a re-analysis of the deposited data

Results flagged for a closer look

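In the test of line by treatment terms, the response to MSB differed among the 12 lines for *Drs* (adjusted p = 0.00517, edgeR), *DptB* (0.0292), *AttC* (0.034) and *DptA* (0.0424). The *Drs* response was called in all 51 alternatives run, and those of *DptB*, *AttC* and *DptA* lost their call in 8, 10 and 25 of 51.

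The M9 stress library that was left out held levels above those of every control library for *AttB* (42.3 CPM, against at most 23.6 CPM in controls) and *CecA1* (1.22 CPM, against at most 1.04 CPM in controls). The other M9 stress library had 49.8 CPM of *AttB* and 0.304 CPM of *CecA1*. For *Drs* the left-out library had 43.6 CPM, against 19.0 CPM in the other M9 stress library and at most 47.5 CPM in controls.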

How the results depend on the processing

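The 56 single tests of a member had 1675 alternative values, which lost a call in 226 and gained one in 6. The 41 called tests with a direction kept it in all 982 of theirs. Of 4 genes not called over all lines, *DptB*, *AttC* and *DptA* changed sign in 5, 8 and 5 of 72 alternatives each, with turned values of -1.70 to -0.01, -0.68 to -0.03 and 0.01 to 0.40, and no such turned value was called. Of the 9 members, 5 were called over all lines, against 3 with DESeq2 (which gave *Dro* and *CecA1* no adjusted p), 2 with an adjusted p threshold of 0.01, 2 without the Zambian lines, 3 in the Zambian lines alone, 2 without the M9Δ line and 2 to 6 with any 1 library or line left out; the fits without single lines and in the Zambian lines alone were chosen after seeing the data. In the Zambian lines alone *DptA* was called (log2 fold-change -3.40, adjusted p = 0.0108), as it was without KL1Δ (-1.59, adjusted p = 0.0323). By line, 24 tests were called, against 8 at 0.01, 15 in 1 fit over all lines and 20 to 33 with 1 library left out. Deletion against nondeletion gave 3 calls in controls, against 1 at 0.01, 1 in 1 fit over all lines and 1 to 7 with 1 library left out (1 without either KL2 control, 7 without M9Δ control replicate 2), and 9 under MSB, with 7 to 11. Their responses gave 0 calls, against 4 with DESeq2, 4 without a filter and 0 to 4 with 1 library left out, the 4 without KL1Δ control replicate 1. Levels in controls differed among lines for 7 members, against 2 at 0.01 and 5 to 9 with 1 library left out. Responses differed among lines for 4, against 1 at 0.01, 7 with DESeq2 and 1 to 5 with 1 library left out (1 without C2 stress replicate 2, for example). The comparison of Zambian with cosmopolitan lines gave 0 calls throughout. The replicate numbers were not shown to pair samples: the correlation of deviations was -0.16 to 0.27 over 9 lines and above 0.1 in 2. With the replicate number as a block, 2 members were called over all lines and 11 of 49 single tests lost their call. Low counts limit *CecA1* and *AttD*, and 1 stress library each limits M9, ZI197 and ZI418. The causes of these changes were not tested.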
